A study of Mus musculus with 8 samples.

Results

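Notch signalling genes were examined in the thoracic aorta of mice that lack Fto and of mice that carry it. The members were 10 genes, taken as every probe of the array whose identifier is a RefSeq transcript of Notch1, Notch2, Notch3, Notch4, Jag1, Jag2, Dll1, Dll4, Hey1 or Heyl. They were read by 12 of the 55681 probes on the array that are no control. The study set 4 samples from Fto -/- mice against 4 samples from Fto +/+ mice, 1 array each, to ask what loss of Fto does to expression in the vessel. Fto encodes a dioxygenase that takes methyl groups off adenosine in RNA. Both groups were labelled as male mice of a C57BL6J/NMRI background, kept with 12 h of light a day, untreated as far as the labels say. Ages, how the Fto allele was made, and whether each sample is 1 animal are not given in the sources used here, so a p-value here reflects the scatter of these 8 arrays, which may be technical.

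Notch receptors sit in the cell membrane and are bound by Delta-like (Dll) or Jagged (Jag) ligands on a neighbouring cell. Binding leads to cleavage of the receptor by ADAM proteases and gamma-secretase, and the freed intracellular part enters the nucleus, joins the DNA-binding protein RBPJ and a Mastermind coactivator, and turns on Hes and Hey repressor genes. In arteries Notch3 is the main receptor of smooth muscle, Jag1 on endothelium and smooth muscle is its best known ligand there, and Dll4, Notch1 and Notch4 are typical of arterial endothelium. Mutations of NOTCH3 in humans cause an inherited disease of small arteries, and mutations of JAG1 cause Alagille syndrome.

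Fto was checked first, because the free-text description of each sample names the other genotype than its title does. Groups were taken from the titles. The Fto probe lay at log2 levels of -2.53, -2.19, -2.56 and -2.77 in the Fto -/- samples, against 0.60, 0.85, 0.47 and 0.35 in the Fto +/+ samples. A level is a log2 intensity, background-subtracted by the scanner software, set relative to the 75th percentile for that array. Fto fell 8.47-fold (-3.08 ± 0.15 SE, limma adjusted p = 0.000403; -1.96 after normexp background correction; exact two-sided permutation p = 0.0286, the smallest that 4 against 4 samples can give). The 75th percentile itself ran from 294.9 to 415.6 over the arrays. Although labelled male, all 8 arrays had both Xist probes well above background, and of 6 probes for 5 Y-linked genes 1 was above background, on 1 array. Slide rows were uneven: Fto -/- replicates 1, 2 and 3 lay in row 1 with Fto +/+ replicate 1, and the other 4 arrays lay in row 2. In all, 419 probes passed the threshold (limma, Benjamini-Hochberg adjusted p under 0.05), 1.66% of the 25292 probes tested (213 higher in Fto -/- samples, 0.842%, and 206 lower, 0.814%).

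Promoter sequences from RefSeq (build GRCm38.p6, 250 bases before to 50 after a gene's start) were found for 8 of the 10 genes, as 9 sequences since Dll1 has 2 annotated starts. Those of Notch3, Notch1 and Dll1 are shown because these genes are among the 4, with Heyl, that lay farthest apart between the genotypes. That of Rbpj is shown because it encodes the factor through which all Notch receptors act. In the Notch3, Notch1 and Dll1 lines capitals mark the GC box GGGCGG on either strand, and in the Rbpj line they mark TGGGAA on either strand, the core of the site that RBPJ binds.
Notch3 (chr17:32166841-32167140, minus strand): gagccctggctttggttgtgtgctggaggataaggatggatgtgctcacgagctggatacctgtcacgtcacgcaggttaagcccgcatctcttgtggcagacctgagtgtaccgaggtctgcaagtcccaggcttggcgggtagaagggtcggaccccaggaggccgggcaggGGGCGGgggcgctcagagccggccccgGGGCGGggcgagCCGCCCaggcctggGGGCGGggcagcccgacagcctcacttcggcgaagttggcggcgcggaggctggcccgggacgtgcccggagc
Notch1 (chr2:26503773-26504072, minus strand): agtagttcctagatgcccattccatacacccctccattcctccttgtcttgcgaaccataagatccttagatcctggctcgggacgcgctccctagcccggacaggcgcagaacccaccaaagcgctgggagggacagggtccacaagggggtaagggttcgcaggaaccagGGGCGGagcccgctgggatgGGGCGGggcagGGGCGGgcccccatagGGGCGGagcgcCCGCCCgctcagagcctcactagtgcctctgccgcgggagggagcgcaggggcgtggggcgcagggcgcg
Dll1, first annotated start (chr17:15376883-15377182, minus strand): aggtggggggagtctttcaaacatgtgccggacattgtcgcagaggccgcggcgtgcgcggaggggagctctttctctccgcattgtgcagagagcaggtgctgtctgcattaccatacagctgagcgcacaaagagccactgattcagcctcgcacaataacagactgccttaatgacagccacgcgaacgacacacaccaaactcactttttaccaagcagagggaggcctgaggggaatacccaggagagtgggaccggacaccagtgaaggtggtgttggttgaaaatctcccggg
Dll1, inner start (chr17:15375774-15376073, minus strand): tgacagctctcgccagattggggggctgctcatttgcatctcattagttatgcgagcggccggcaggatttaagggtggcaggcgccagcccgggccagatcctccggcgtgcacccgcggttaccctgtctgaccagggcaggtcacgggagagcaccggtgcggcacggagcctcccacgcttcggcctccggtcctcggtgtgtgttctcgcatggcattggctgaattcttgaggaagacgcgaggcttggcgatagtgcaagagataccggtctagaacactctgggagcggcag
Rbpj (chr5:53590096-53590395, plus strand): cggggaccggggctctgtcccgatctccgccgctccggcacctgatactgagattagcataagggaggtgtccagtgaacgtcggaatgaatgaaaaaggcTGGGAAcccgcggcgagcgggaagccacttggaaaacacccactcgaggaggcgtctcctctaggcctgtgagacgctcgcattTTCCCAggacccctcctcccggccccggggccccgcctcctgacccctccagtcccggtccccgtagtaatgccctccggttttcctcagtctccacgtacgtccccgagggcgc
The GC box occurred 4 times before the start of Notch3 and 5 times before that of Notch1, and it was in neither Dll1 promoter. It was found in 5 of the 9 promoters of the member genes, against 35.7% of all 32851 promoters of the same length. The letters TGGGAA were in 0 of the 9, against 25.6% of all promoters, and in both windows of Rbpj. The longer form TGTGGGAA, which contains it, and the CArG box, the site of serum response factor, were in 0 of the 9, against 1.9% and 1.6% of all promoters. The E-box CACGTG was also in 0 of the 9, against 7.2%. The member promoters had 55.7% to 86.0% G and C, against a median of 52.7%.

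Of the 12 member probes, 8 were tested, 1 for each of 8 genes, because the scanner software put them well above background on 4 or more arrays, and in fact on all 8. Jag2, a ligand, and second probes for Notch1 and Notch2 stayed within background throughout. Dll4, the endothelial ligand, was above background on 1. None of the 8 passed the threshold: limma called 0 higher and 0 lower, beside 0.842% and 0.814% of all tested probes. At an unadjusted p under 0.05 were 4 of the 8, beside 19% of all tested probes. They were Notch1, higher in Fto -/- samples (8.72% of all tested probes), and Notch3, Dll1 and Heyl, lower in them (10.3%). The same 4 genes had differences of at least 0.3 in size, beside 28% of all tested probes. The genotypes did not overlap for 3 of the 8, the last 3 of these genes, beside 12.1% of all tested probes. All 3 were lower in Fto -/- samples (7.36% of all tested probes) and 0 were higher (4.75%). With 8 probes these counts say nothing firm about the family, and the members were chosen with results of these data known. Differences below 0 were seen for 6 of the 8, beside 52.5% of all tested probes, with a median of -0.19 against -0.02 over all tested probes.

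**Figure D1:**
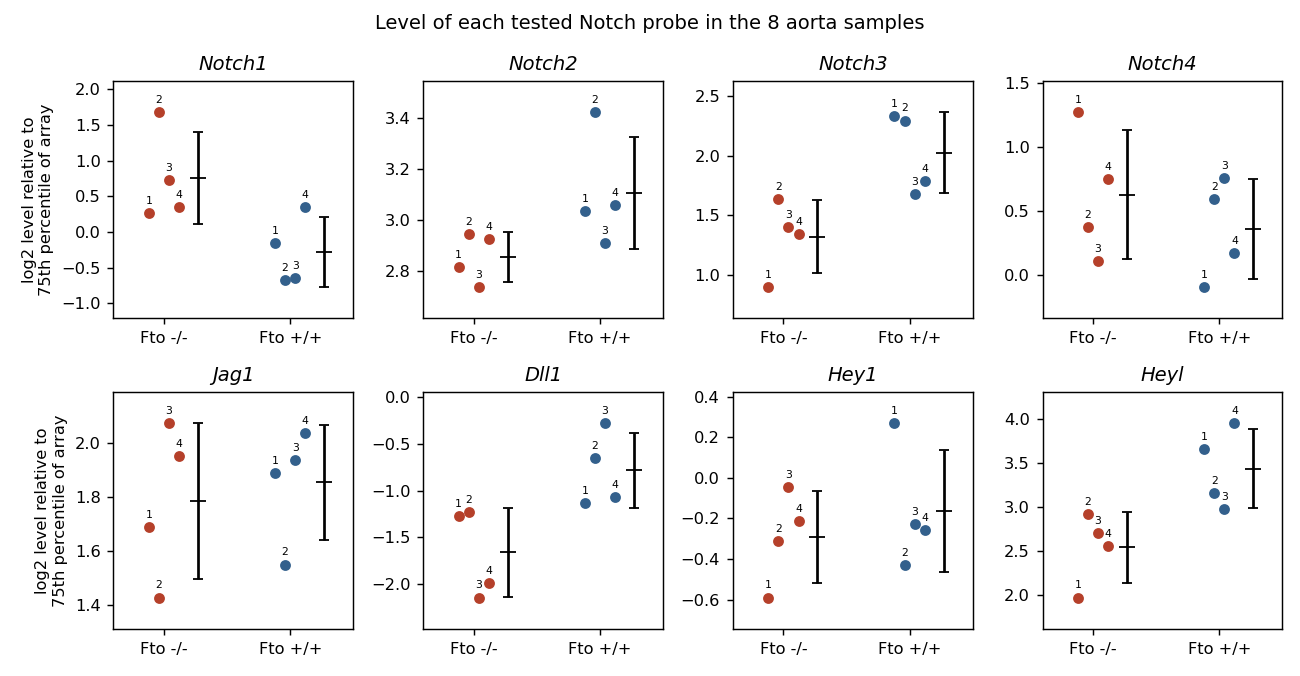
Level of the 8 tested Notch probes in each sample, with Fto -/- (red) left of Fto +/+ (blue); the y axis is the log2 level relative to the 75th percentile of the array, numbers are replicates, and bars give the mean and SD (n = 4 each). The red and blue points do not overlap for Notch3, Dll1 and Heyl, and overlap for the other 5.

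Notch3, the receptor of arterial smooth muscle, was lower in Fto -/- samples without overlap. Its levels were 0.90, 1.64, 1.40 and 1.34 in Fto -/- replicates 1 to 4, against 2.33, 2.30, 1.68 and 1.79 in Fto +/+ replicates 1 to 4. The genotypes were separated narrowly: the highest Fto -/- sample lay 0.04 under the lowest Fto +/+ sample. The means were 1.32 ± 0.31 in Fto -/- and 2.02 ± 0.34 in Fto +/+ samples (SD, n = 4 each). The log2 difference was -0.71 ± 0.21 (SE; 95% interval -1.17 to -0.24), 1.63-fold lower, and it missed the threshold (limma adjusted p = 0.123). By p the probe ranked 1618 of the 25292 tested.

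Notch1, which acts in endothelium and in many other cell types, T cell precursors among them, differed the other way. The levels of its measured probe were 0.27, 1.68, 0.73 and 0.35 in Fto -/- samples, against -0.16, -0.68, -0.65 and 0.35 in Fto +/+ samples. Fto -/- replicate 2 stood highest, and Fto +/+ replicate 4 reached the level of the 2 lowest Fto -/- samples, so the genotypes overlapped. The log2 difference was 1.04 ± 0.35 (SE; 95% interval 0.25 to 1.82), 2.05-fold higher in Fto -/- samples, and it did not pass (limma adjusted p = 0.162). The second Notch1 probe had intensities of 7.3 to 10.7 in Fto -/- and 8.5 to 15.8 in Fto +/+ samples, all within background, so the difference rests on 1 probe.

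Notch2, the receptor that shares smooth muscle with Notch3, varied little within each genotype. Its levels were 2.81, 2.94, 2.74 and 2.92 in Fto -/- samples, against 3.03, 3.42, 2.91 and 3.06 in Fto +/+ samples. The ranges overlapped slightly, and the difference of -0.25 ± 0.13 (SE; 95% interval -0.54 to 0.03) did not pass (limma adjusted p = 0.318). The second Notch2 probe was not measurable, with intensities of 18.3 to 43.5.

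Notch4, a receptor largely restricted to endothelium, was spread widely within both genotypes. Levels were 1.27, 0.38, 0.11 and 0.75 in Fto -/- samples, against -0.09, 0.59, 0.76 and 0.18 in Fto +/+ samples. The difference was 0.27 ± 0.28 (SE; 95% interval -0.36 to 0.90; limma adjusted p = 0.627). Over the 8 arrays the Notch4 level followed the mean level of 14 endothelial markers (Pearson r = 0.75 over 8 arrays that share a slide, given as a description). The other members differed: Dll1 had r of 0.49 with it, Jag1 0.11, Notch2 -0.02, Notch3 -0.27, Heyl -0.38, Hey1 -0.40 and Notch1 -0.68. The members thus did not follow the endothelial level as a group. That endothelial level spanned -0.26 to 0.21 in Fto -/- samples and -0.13 to 0.37 in Fto +/+ samples.

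Of the ligands, Jag1 lay at nearly the same level in both genotypes. Its levels were 1.69, 1.43, 2.07 and 1.95 in Fto -/- samples, against 1.89, 1.55, 1.94 and 2.04 in Fto +/+ samples. The difference of -0.07 ± 0.17 (SE; limma adjusted p = 0.855) had a 95% interval of -0.45 to 0.31, so these data do not show that Jag1 was equal, only that a difference larger than that interval was not seen.

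Dll1, a Delta-like ligand that in adult arteries is known from endothelium, was lower in every Fto -/- sample. Levels were -1.27, -1.23, -2.14 and -1.98 in Fto -/- samples, against -1.14, -0.65, -0.28 and -1.07 in Fto +/+ samples. Fto -/- replicates 3 and 4 stood apart below all others, while replicate 2 came within 0.09 of Fto +/+ replicate 1. The difference was -0.87 ± 0.27 (SE; 95% interval -1.48 to -0.26), 1.83-fold lower, and it did not pass (limma adjusted p = 0.141). After normexp background correction it was -0.54.

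The Dll1 probe is printed 10 times on each array, which shows the technical error of a spot. The SD between its spots within an array ran from 0.06 to 0.20 on the log2 scale. Between samples the SD was 0.47 in Fto -/- and 0.40 in Fto +/+ samples (n = 4 each), so samples of 1 genotype differed from each other by more than spots of 1 array did. In Fto -/- replicates 3 and 4, 1 spot each was an outlier and was left out. All 10 spots were well above background on every array, at mean intensities of 66.9 to 155.5 in Fto -/- and 152.9 to 313.9 in Fto +/+ samples. The other member probes have 1 spot an array and no such measure.

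**Figure D2:**
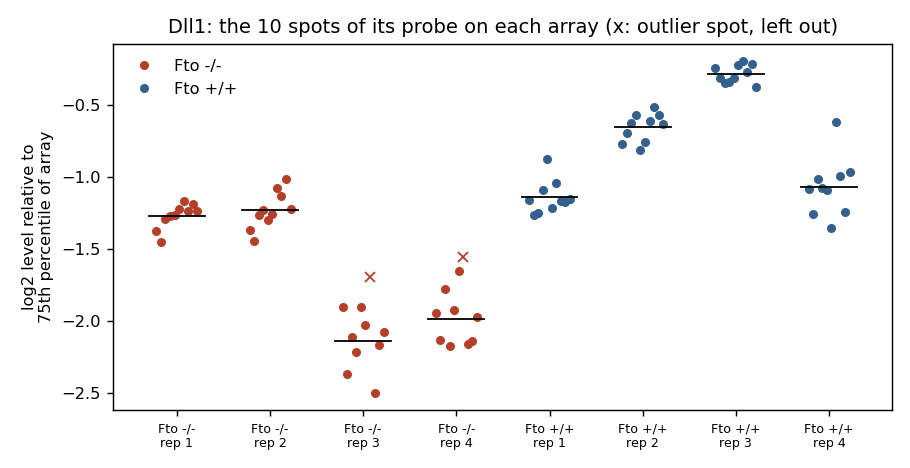
The 10 spots of the Dll1 probe on each of the 8 arrays, Fto -/- (red) left of Fto +/+ (blue); the y axis is the log2 level relative to the 75th percentile of the array, lines are array means and crosses are spots left out as outliers. Spots of 1 array lie close together (SD 0.06 to 0.20), and array means span -2.14 to -1.23 in Fto -/- samples and -1.14 to -0.28 in Fto +/+ samples.

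Dll4, the ligand of arterial and sprouting endothelium, had intensities of 18.7, 34.1, 21.0 and 7.9 in Fto -/- samples, against 15.5, 9.8, 123.3 and 20.9 in Fto +/+ samples. Only the 123.3 of Fto +/+ replicate 3 was well above background, and no difference is given. That array also had the highest endothelial marker level of the 8, at 0.37. Jag2, a Jagged ligand, had intensities of 17.0 to 34.9 in Fto -/- and 14.7 to 37.2 in Fto +/+ samples, within background on all 8 arrays. In whole vessel RNA, fewer cells of a type and less RNA per cell cannot be told apart, which touches each of these genes.

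Of the target genes, Heyl, a repressor that Notch3 induces in smooth muscle, was lower in every Fto -/- sample. Its levels were 1.97, 2.92, 2.71 and 2.56 in Fto -/- samples, against 3.65, 3.15, 2.97 and 3.95 in Fto +/+ samples. The gap between the genotypes was 0.05. Means were 2.54 ± 0.41 in Fto -/- and 3.43 ± 0.45 in Fto +/+ samples (SD, n = 4 each). The difference of -0.90 ± 0.26 (SE; 95% interval -1.50 to -0.29), 1.86-fold lower, missed the threshold (limma adjusted p = 0.127). Hey1, the related target in endothelium and smooth muscle, differed by -0.13 ± 0.17 (SE; 95% interval -0.53 to 0.27; limma adjusted p = 0.718). Its levels were -0.59, -0.31, -0.05 and -0.22 in Fto -/- samples, against 0.27, -0.43, -0.23 and -0.26 in Fto +/+ samples, where replicate 1 alone stood above the rest.

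Notch3 and Heyl had their lowest values in the same sample, Fto -/- replicate 1, and their highest Fto -/- values in replicate 2. Over the 8 arrays their levels had a Pearson r of 0.79, and of 0.48 after each genotype's mean was taken out, both given as descriptions of 8 arrays of 1 slide. The pair was not particular in this. After the same step Heyl had r of 0.85 with Notch1, 0.52 with Hey1 and -0.86 with Notch4. Over the 8 arrays these were -0.18, 0.53 and -0.77. Among the Fto +/+ samples the order differed, with Heyl highest in replicate 4 and Notch3 highest in replicate 1.

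**Figure D3:**
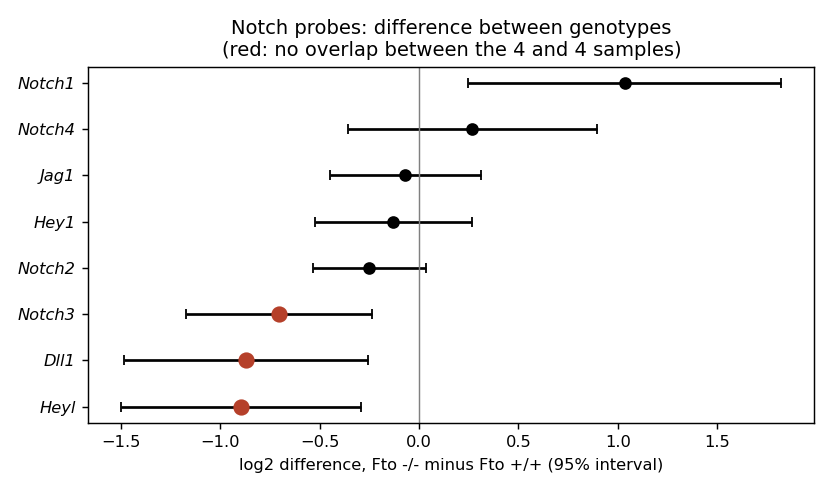
Log2 difference (Fto -/- minus Fto +/+) of the 8 tested Notch probes with 95% intervals from limma; red points have no overlap between the 4 Fto -/- and 4 Fto +/+ samples. The intervals of Notch1, Notch3, Dll1 and Heyl exclude 0 before adjustment for the 25292 probes tested, and 0 of the 8 passed after it.

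With slide row as a block, Notch3 differed by -0.80, Heyl by -0.96, Dll1 by -0.86 and Notch1 by 0.86 (limma adjusted p from 0.244 to 0.412). Within row 1 (3 Fto -/- samples against 1) the differences were -1.02 for Notch3, -1.12 for Heyl, -0.41 for Dll1 and 1.05 for Notch1. Within row 2 (1 Fto -/- sample against 3) they were -0.58, -0.80, -1.32 and 0.67 in the same order. For Notch3, Heyl and Dll1, whose genotypes do not overlap, the sign in any such subset is fixed in advance. Without any 1 of the 8 arrays, Notch3 ran from -0.82 to -0.57, Heyl from -1.05 to -0.71, Dll1 from -1.01 to -0.70 and Notch1 from 0.73 to 1.25, and 0 of them passed.

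**Figure D4:**
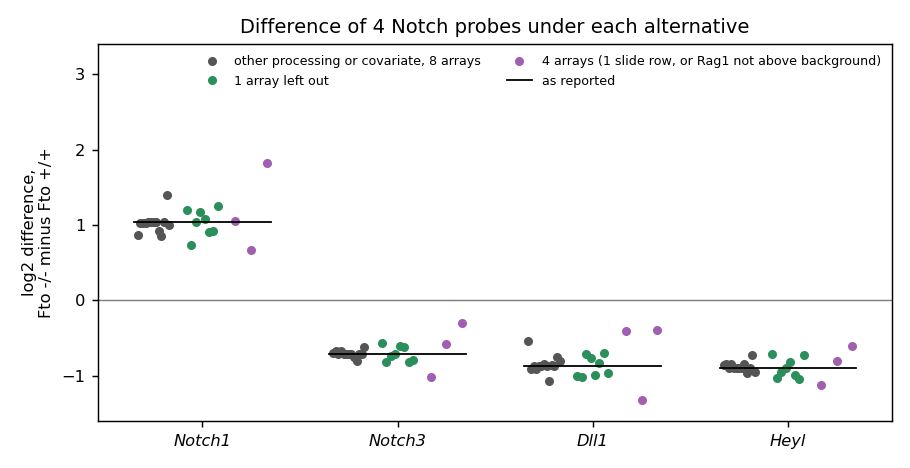
Log2 difference (Fto -/- minus Fto +/+) of Notch1, Notch3, Dll1 and Heyl as reported (lines) and under each alternative (points): other processing or covariates, 1 array left out, and sets of 4 arrays. The sets of 4 arrays spread from 0.67 to 1.83 for Notch1 and from -1.32 to -0.40 for Dll1.

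Other genes of the pathway were followed in 5 lists by role, 65 genes of which 55 were tested. Limma called 0 of the 55, beside 1.66% of all tested probes. At an unadjusted p under 0.05 were 6 lower and 1 higher, beside 10.3% lower and 8.72% higher of all tested probes. The genotypes did not overlap for 7 genes, or 12.7%, all lower in Fto -/- samples, beside 7.36% lower and 4.75% higher of all tested probes. Their median difference was -0.09, and 72.7% lay below 0, beside 52.5% of all tested probes.

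In the nuclear complex and its corepressors 0 of 21 tested genes passed, with a median of -0.15. Rbpj, the DNA-binding partner of all Notch receptors, had levels of 1.88, 1.95, 1.88 and 2.10 in Fto -/- samples, against 2.40, 2.57, 2.29 and 2.24 in Fto +/+ samples. It differed by -0.42 ± 0.11 (SE, limma adjusted p = 0.0911) with no overlap, but its second tested probe gave 0.34 ± 0.26 (SE, adjusted p = 0.512), so the probes of Rbpj disagree in sign. Kat2b, a histone acetyltransferase that coactivates Notch, differed by -0.40 ± 0.10 (SE, limma adjusted p = 0.0840). Ctbp2, a corepressor, differed by -0.39 ± 0.10 (SE, limma adjusted p = 0.0855), and Maml1, a Mastermind coactivator, by -0.27 ± 0.09 (SE, adjusted p = 0.173). For these 4 genes every Fto -/- sample lay below every Fto +/+ sample with the probe that stands for the gene.

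Among other ligands, Hes and Hey factors and feedback targets 0 of 7 tested genes passed, with a median of -0.11. Hes1, a direct target of the RBPJ complex, had the smallest p of the pathway. Its levels were -2.29, -2.80, -2.90 and -2.43 in Fto -/- samples, against -2.09, -1.96, -1.86 and -1.95 in Fto +/+ samples, with no overlap. The difference was -0.64 ± 0.15 (SE, limma adjusted p = 0.0743), 1.56-fold lower. The Hes1 probe was dim, though well above background on all 4 arrays of each genotype. For the brighter Dll1 probe, normexp background correction took the difference from -0.87 to -0.54. No such value is given for Hes1, so how far its difference depends on the background was not tested. Hes6, a Hes factor that opposes Hes1 in the nervous system, differed by -0.16 ± 0.10 (SE, limma adjusted p = 0.406). Hes5, Hes2, Hes3 and the feedback inhibitor gene Nrarp had no array with a signal well above background.

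The proteases that cleave Notch differed little: 0 of 7 tested genes passed and 0 were at an unadjusted p under 0.05, with a median of -0.0047. Furin, which cuts the receptor on its way to the membrane, differed by -0.17 ± 0.11 (SE, limma adjusted p = 0.438), and Adam10, which cuts it after ligand binding, by -0.09 ± 0.10 (SE, adjusted p = 0.659). Of the 5 glycosyltransferases that modify Notch, 0 passed and 0 were at an unadjusted p under 0.05. Mfng, a Fringe enzyme, differed by 0.17 ± 0.13 (SE, limma adjusted p = 0.522), and Pofut1, which adds fucose to Notch, by -0.14 ± 0.12 (SE, adjusted p = 0.554), while its second probe gave 0.13. The count above is by the probe that stands for each gene; the second Mfng probe gave 0.31 ± 0.13 (SE, limma adjusted p = 0.246) and was at an unadjusted p under 0.05. Of 15 ubiquitin ligases and adaptors 0 passed. Neurl2 differed by -0.52 ± 0.16 (SE, limma adjusted p = 0.138) and Itch, a ubiquitin ligase that acts on Notch, by -0.21 ± 0.10 (SE, adjusted p = 0.296), both with no overlap.

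**Figure D5:**
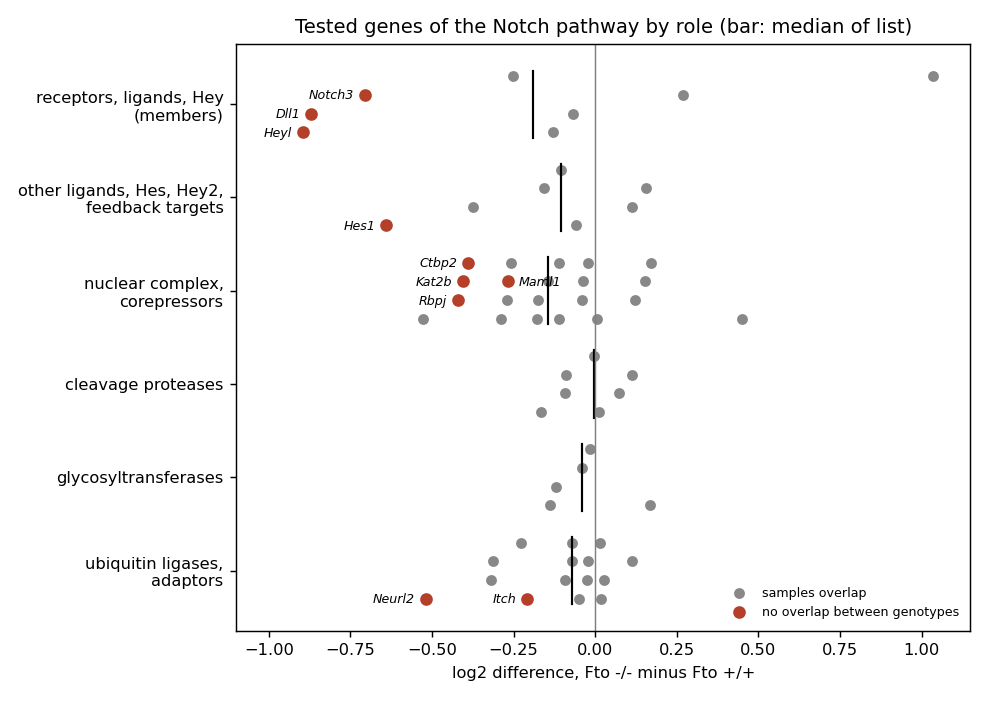
Log2 difference (Fto -/- minus Fto +/+) of each tested Notch pathway gene by role; bars are list medians and red points are genes whose Fto -/- and Fto +/+ samples do not overlap. Heyl, Dll1, Notch3 and Hes1 lie farthest left among the red points, all red points are below 0, and 0 of the genes passed the threshold.

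Genes that act with Notch in arterial endothelium had a median of -0.27, and 0 of 12 tested passed. Efnb2, an ephrin ligand that marks arterial endothelium and is a Notch target there, differed by -0.41 ± 0.10 (SE, limma adjusted p = 0.0934) with no overlap. Foxc2, a forkhead factor that induces Dll4, differed by -0.42 ± 0.13 (SE, adjusted p = 0.142). Acvrl1, an endothelial receptor for BMP ligands, differed the other way, by 0.25 ± 0.10 (SE, limma adjusted p = 0.212), also with no overlap. Of 9 smooth muscle genes known to depend on Notch3 or Jag1, 0 passed, with a median of -0.07. Cnn1, which encodes calponin, differed by -0.32 ± 0.10 (SE, limma adjusted p = 0.148) with no overlap, and Smtn, which encodes smoothelin, by -0.25 ± 0.15 (SE, adjusted p = 0.379). The second Smtn probe gave -0.57 ± 0.20 (SE, limma adjusted p = 0.186), lower with no overlap.

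Markers of the cells in the vessel were set beside these values. All 10 smooth muscle markers were measured and 0 passed, with a median of -0.29. At an unadjusted p under 0.05 were 1 higher and 4 lower, beside 8.72% and 10.3% of all tested probes, and 4 of 10 were lower without overlap, beside 7.36%. Their mean level was -0.19 to 0.05 in Fto -/- samples, against 0.03 to 0.22 in Fto +/+ samples, with a small overlap. The Heyl level had a Pearson r of 0.85 with it over the 8 arrays and of 0.65 within genotypes, as a description. Within genotypes Notch1 had 0.73 with the smooth muscle level, Notch2 0.43, Notch3 0.28, Dll1 0.04, Hey1 -0.20, Notch4 -0.24 and Jag1 -0.32. Heyl also had, within genotypes, r of -0.87 with the endothelial level and -0.86 with the mean level of macrophage markers. An r of this size was thus not particular to the smooth muscle level. The defining markers Acta2 and Myh11, genes of the contractile filaments, differed by 0.08 ± 0.10 and 0.07 ± 0.15 (SE, limma adjusted p of 0.692 and 0.836). Lmod1, which encodes leiomodin, differed by -0.78 ± 0.17 (SE, limma adjusted p = 0.0681), Synpo2 by -0.46 ± 0.12 and Itga8, an integrin gene, by -0.39 ± 0.10 (adjusted p of 0.0940 and 0.0894), all 3 without overlap. Des, the 1 marker higher at an unadjusted p under 0.05, differed by 0.41 ± 0.12 (SE, limma adjusted p = 0.128), with overlap. Of 14 endothelial markers 0 passed, 2 were higher and 2 lower at an unadjusted p under 0.05, and 8 lay below 0. Pecam1 and Cdh5 differed by -0.23 ± 0.16 and -0.32 ± 0.19 (SE, limma adjusted p of 0.485 and 0.396), and Robo4 and Erg by 0.84 ± 0.35 and 0.36 ± 0.12 (adjusted p of 0.243 and 0.159). Brown adipocyte markers, 6 of 7 measured, lay at -0.31 to 1.70 in Fto -/- and -1.54 to -0.05 in Fto +/+ samples. Of these 6, 0 passed and 4 were higher at an unadjusted p under 0.05, beside 8.72% of all tested probes. Dio2, the 1 marker of this list below 0, differed by -0.07 ± 0.35 (SE, limma adjusted p = 0.933). Ucp1, the uncoupling protein gene of brown fat, was well above background on all 8 arrays and differed by 2.90 ± 0.94 (SE, limma adjusted p = 0.153), 7.46-fold higher, and Cox7a1 by 2.00 ± 0.56 (adjusted p = 0.113) without overlap. Over the 8 arrays the levels of Notch2, Notch3 and Dll1 had Pearson r of -0.82, -0.81 and -0.74 with the brown adipocyte level, and of -0.66, -0.56 and -0.42 within genotypes, as a description. The other members differed: Heyl had -0.58, Hey1 -0.07, Notch4 0.21, Notch1 0.41 and Jag1 0.50. Within genotypes these were -0.02, 0.21, -0.05, -0.27 and 0.92 in the same order, so the members did not follow this level as a group. T cell markers, 9 of 13 measured, spanned -1.33 to 1.87 in Fto -/- samples and -1.80 to 1.68 in Fto +/+ samples, and Cd3d was well above background on 3 Fto -/- arrays and 1 Fto +/+ array. Adding the T cell level to the fit, the differences were -0.72 for Notch3, -0.73 for Heyl, -0.75 for Dll1 and 1.39 for Notch1, and adding the white adipocyte level they were -0.61, -0.95, -0.81 and 1.01. In the 4 arrays on which Rag1 was not above background (1 Fto -/- sample against 3) Notch3 differed by -0.30, Heyl by -0.61, Dll1 by -0.40 and Notch1 by 1.83. The part of smooth muscle, endothelial or brown adipocyte content in these differences was not tested.

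The genes whose pattern over the 8 arrays was most like that of a member were sought among 12502 named genes, as a description. For Notch3 they were Pcdh7, Rcan2 and Sost, with Pearson r of 0.98, 0.97 and 0.97. For Notch1 they were Akap7, Norad and Zfp981, with r of 0.99, 0.98 and 0.98. For Jag1 they were Mir99ahg, Trmt9b and Coq8a, with r of 0.96 each.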

How the data were processed

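RNA of thoracic aorta was labelled with 1 dye (Cy3) and read on 1 Agilent mouse array per sample, per the labels' protocols. The deposited scanner files hold an intensity per spot from Agilent Feature Extraction, background-subtracted but on each array's own scale, per the file headers. A second deposited table, with log2 values for these arrays, was centred per probe on the median of the 8, as found from its values (column medians -0.0095 to 0.0049, slopes on the scanner values 0.96 to 1.01). How it was normalised is unknown here, and it served as an alternative. Control spots (3671 of 62976 per array) and outlier spots (126 to 189) were left out, spots of a probe were averaged, and the array's 75th percentile was subtracted on the log2 scale. Probes well above background on at least 4 of 8 arrays were tested with limma 3.58.1 in R 4.3.3 as Fto -/- minus Fto +/+, and p-values were adjusted over 25292 probes (Benjamini-Hochberg). Names came from a RefSeq gene table (GRCm38.p6), which named 50.9% of probes; the array is annotated on mm9, so no probe coordinates are given; promoter coordinates are those of the RefSeq sequences. Where several probes of a gene were tested, that of highest mean stood for it. The fit was tested on simulated data. The number of arrays limits the precision.

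The members and lists were chosen with earlier results of these data known. Named were all members, up to 4 genes of each pathway list past the threshold or else the 2 of smallest p, the first 2 markers of each cell type list that were tested (1 is not reported here), the 3 genes most like Notch1, Notch3 and Jag1 (Dll4 was not tested), and, chosen after their values were seen, Rbpj, Maml1, Hes5, Hes2, Hes3, Nrarp, Rag1, Acvrl1, Lmod1, Synpo2, Itga8, Robo4, Erg, Cox7a1, Lum and Col1a2. Alternatives covered background correction, normalisation, filter, array weights, slide row, replicate number, single arrays and other cell types.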

Additional observations from a re-analysis of the deposited data

How the results depend on the processing

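Over 24 alternatives the 8 member probes gave 192 values, of which 185 kept direction and side of the threshold, 5 turned sign and 2 passed. With array weights, Notch3 (-0.75, limma adjusted p = 0.0490) and Dll1 (-1.07, 0.0445) passed, so the count of member probes lower in Fto -/- was 2, and 960 probes in all were higher and 1093 lower; the weights were lowest for Fto +/+ replicate 4 (0.37) and Fto -/- replicate 2 (0.45), and the cause was not tested. With array weights 6 genes of the other lists passed too, of 55 pathway, 12 arterial and 9 smooth muscle genes tested. In that setting 2053 of all 25292 tested probes passed, so the 6 are no result about these lists. Jag1 turned to 0.019 with array weights and 0.11 within row 2, and ran from -0.17 to 0.051 without 1 array. Hey1 turned to 0.090 within row 2, and ran from -0.22 to 0.014 without 1 array. Over all probes, higher and lower calls were 61 and 35 with no filter (55681 probes tested), 33 and 13 with slide row as a block, 1 and 0 within row 2, 0 and 0 within row 1 (limma, with 2111 unadjusted p under 0.05), 75 and 53 with the T cell level, 93 and 65 with the white adipocyte level, and 0 and 0 in the 4 arrays without Rag1 (limma, 2294 at an unadjusted p under 0.05). Leaving out any of the 8 arrays moved these counts by over 1.5 times, from 55 higher and 46 lower (without Fto -/- replicate 4) to 499 and 387 (without Fto +/+ replicate 4). Fto did not pass within row 1 (-3.02, adjusted p = 0.154), within row 2 (-3.33, 0.320) or in the arrays without Rag1 (-2.66, 0.129), each with 4 arrays. With the replicate number as a replicate block, 90 probes were higher and 42 lower and 0 members passed. Same-numbered samples correlated at -0.04 to 0.15, and differently numbered ones of the 2 genotypes at -0.31 to 0.19. No pairing by number was seen, but such correlations cannot exclude one. The normexp correction on the mean signal was not run, since the files hold the median signal; on that, chosen after seeing the data as was the setting without Rag1, Fto differed by -1.96, Dll1 by -0.54 and Notch3 by -0.70. Dim probes (Dll4, Jag2 and second probes of Notch1 and Notch2) have no measured difference here.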

Other observations

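Markers of neurons and Schwann cells, 5 of 8 measured, lay at 0.06 to 0.41 in Fto -/- and -0.34 to -0.04 in Fto +/+ samples, so the mean level of this list did not overlap between the genotypes. Of the 5 genes 0 passed (2 higher at an unadjusted p under 0.05, beside 8.72% of all tested probes). Pericyte markers, a mural cell type that also carries Notch3, lay at -0.10 to 0.20 in Fto -/- and -0.11 to 0.01 in Fto +/+ samples. Rgs5 and Cspg4 differed by -0.01 ± 0.28 and -0.06 ± 0.15 (SE, limma adjusted p of 0.985 and 0.870). Fibroblast markers lay at 0.01 to 0.29 in Fto -/- and -0.67 to 0.19 in Fto +/+ samples, where replicate 4 was lowest, and 7 of the 8 markers lay above 0. Pdgfra and Dcn differed by 0.41 ± 0.24 and -0.01 ± 0.16 (SE, limma adjusted p of 0.382 and 0.970), and Lum and Col1a2, both at an unadjusted p under 0.05, by 0.93 ± 0.39 and 0.28 ± 0.12 (adjusted p of 0.240 and 0.257). Among the other defining markers, Adipoq of white adipocytes differed by 0.86 ± 0.65 and Cidea of brown adipocytes by 1.88 ± 0.47, without overlap (SE, limma adjusted p of 0.504 and 0.0884). Cd3e of T cells differed by 0.18 ± 0.18 (SE, limma adjusted p = 0.626). Cd3d, well above background on 3 Fto -/- arrays and 1 Fto +/+ array, differed by 2.58 ± 1.18 (SE, adjusted p = 0.279). The 9 T cell markers tested had a median difference of 1.62 and 0 lay below 0, though 0 passed. Cd68 and Csf1r of macrophages differed by 0.50 ± 0.33 and 0.23 ± 0.32 (SE, limma adjusted p of 0.440 and 0.723). Myh6 and Myl2 of cardiac muscle differed by -0.50 ± 1.11 and -1.25 ± 0.68 (adjusted p of 0.839 and 0.355). What part any of these cell types has in the Notch differences was not tested.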
